A study of Homo sapiens with 9 samples.

Results

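The genes described here are 33 genes of the hypoxia response and of glycolysis, measured in MDA-MB-231 cells, an established human triple negative breast cancer line. They were chosen by name for their known roles, but with earlier results of these data known, so no test of the set was run. Each gene is represented by the probe that carries its symbol alone and has the highest mean over all arrays. By this rule 31 of the 33 genes have a value, among 18417 genes (19460 probes) with 1 symbol in the whole series. CA9, a membrane carbonic anhydrase, and SLC16A3, a lactate exporter, have no probe of that kind in the annotation used and were not analysed here. Cells were treated for 24 hours with SID peptide at 2.5 µM (SID), which copies the SIN3 interaction domain and occupies the PAH2 pocket of the corepressor SIN3A, treated for 24 hours with the scrambled control peptide, for which the labels give no dose (SCR), or left untreated (UT). Total RNA of each culture was hybridized to 1 Affymetrix human gene array, with 3 arrays per group and 9 in all, and the labels call the replicates independent. The study's methods give the SCR peptide the same dose as SID. The labels name no low-oxygen treatment in any group, and they give the same cell line for all groups. The labels give 24 hours for every peptide array, whereas a column heading in the study's material names a longer time for SCR replicate 3, so the time of that array is in doubt, and with it each value that compares SID and SCR in replicate 3.

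Cells read oxygen through the hypoxia-inducible factors (HIF). In oxygen, prolyl hydroxylases of the EGLN family modify the alpha subunits HIF1A and EPAS1 (HIF-2 alpha) and mark them for degradation. When oxygen is low the alpha subunits persist, pair with ARNT and bind the core letters ACGTG or GCGTG in DNA. Their targets take up and ferment glucose, hold pyruvate out of the mitochondria, export acid, call in blood vessels, remove mitochondria and hydroxylate collagen. Many breast cancer lines express part of this program also in air.

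RefSeq promoter windows (GRCh38.p14), which run from 250 bases before a gene's start to 50 bases after it, were found for 28 of the 33 genes, in 42 windows. SLC2A3, VEGFA, STC1, BNIP3L and NDRG1 had none. In SID replicates 1 and 2 the signal of P4HA1, ADM, CA12 and ALDOC rose against SCR. Against UT in the same replicates, ALDOC was called lower in SID (-1.15) and in SCR (-2.40). PGK1, a classical glycolytic target, was not called between SID and SCR. The 5 stretches below are the 250 bases before the start of these 5 genes. They lie at chr10:73096867-73097116 (P4HA1, minus strand), chr11:10304823-10305072 (ADM, plus strand), chr15:63381847-63382096 (CA12, minus strand), chr17:28576896-28577145 (ALDOC, minus strand) and chrX:78103998-78104247 (PGK1, plus strand). Each reads 5′ to 3′ along the gene, and capitals mark ACGTG or GCGTG on either strand (CACGT and CACGC are the same letters on the other strand).
P4HA1: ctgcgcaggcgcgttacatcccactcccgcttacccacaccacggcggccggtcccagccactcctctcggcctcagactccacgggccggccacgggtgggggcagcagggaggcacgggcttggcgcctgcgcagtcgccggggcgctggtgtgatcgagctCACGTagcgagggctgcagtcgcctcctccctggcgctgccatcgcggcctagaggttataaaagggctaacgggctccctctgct
ADM: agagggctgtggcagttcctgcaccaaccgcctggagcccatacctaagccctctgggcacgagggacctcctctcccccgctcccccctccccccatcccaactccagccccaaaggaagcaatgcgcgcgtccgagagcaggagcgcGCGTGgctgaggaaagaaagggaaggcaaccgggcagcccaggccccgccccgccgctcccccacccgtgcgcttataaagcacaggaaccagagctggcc
CA12: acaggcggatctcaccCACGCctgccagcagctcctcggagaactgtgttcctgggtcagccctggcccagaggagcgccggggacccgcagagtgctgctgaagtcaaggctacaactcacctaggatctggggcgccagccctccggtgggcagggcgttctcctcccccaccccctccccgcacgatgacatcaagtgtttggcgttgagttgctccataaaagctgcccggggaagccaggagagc
ALDOC: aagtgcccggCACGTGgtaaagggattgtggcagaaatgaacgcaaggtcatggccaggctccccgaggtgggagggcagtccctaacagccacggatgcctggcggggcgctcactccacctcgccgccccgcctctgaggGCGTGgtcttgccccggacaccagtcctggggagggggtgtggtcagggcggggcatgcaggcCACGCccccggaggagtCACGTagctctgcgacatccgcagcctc
PGK1: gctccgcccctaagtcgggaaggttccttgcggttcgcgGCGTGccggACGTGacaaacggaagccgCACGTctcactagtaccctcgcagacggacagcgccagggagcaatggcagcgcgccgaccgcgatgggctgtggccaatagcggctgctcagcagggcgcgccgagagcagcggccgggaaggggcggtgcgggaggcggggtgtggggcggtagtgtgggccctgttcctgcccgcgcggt
ACGTG or GCGTG stood in 34 of the 42 windows of the genes (81.0%), against 48.4% of all 35116 RefSeq windows of the same length. ACGTG was in 52.4% of the genes' windows and in 21.4% of all windows, and GCGTG was in 47.6% and 36.5%. The run CACGTG, also known as an E-box, holds ACGTG on both strands at once, and ALDOC has 1 such run. Of the genes called higher against SCR in SID replicates 1 and 2, all 4 windows held at least 1 of the cores. So did 26 of the 32 windows of genes not called in that comparison (81.2%). A match is a description of the letters and no measure of binding.

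The arrays formed 2 sets that the group labels do not give, and results are therefore given over all replicates and for replicates 1 and 2 apart from replicate 3. Over all tested probes, replicates 1 and 2 of SID and SCR correlated at 0.963 to 0.995 with each other, replicate 3 of SID, replicate 3 of SCR and the 3 UT arrays at 0.993 to 0.997 with each other, and arrays of different sets at 0.908 to 0.929. Markers of the line moved with the sets. AXL, a receptor kinase typical of MDA-MB-231, read 13.31, 13.28 and 9.96 in SID (replicates 1, 2 and 3, log2 signal), 12.95, 13.20 and 9.95 in SCR and 10.06, 10.14 and 10.02 in UT. Of 6 genes that MDA-MB-231 is known for, 3 were called higher in SID replicates 1 and 2 than in UT, beside 6.93% of all probes. In SCR replicates 1 and 2, 4 were called higher than in UT, beside 6.58%. Of 5 measured genes that the line is known to lack or hold low, the epithelial genes EPCAM (3.28 and 4.20 in log2) and KRT19 (4.06 and 4.40) were called higher in SID and SCR replicates 1 and 2 against UT, while ESR1, PGR and ERBB2 were not called. The log2 of the summed signal of the first list ran from 14.43 to 15.66 in SID, from 14.38 to 15.74 in SCR and from 14.29 to 14.30 in UT, and that of the second list from 10.09 to 12.24, from 10.13 to 12.77 and from 10.10 to 10.15 in the same order of groups. Among 7 markers of blood, endothelial, fibroblast and liver cells the endothelial CDH5 was called lower in SID replicates 1 and 2 and PECAM1 higher in SCR replicates 1 and 2 against UT, and the summed log2 signal of the 7 ran from 9.95 to 10.74 in SID, from 10.71 to 11.15 in SCR and from 10.72 to 10.88 in UT. Whether both sets of arrays come from the same stock of cells is not stated in the sources used here and was not tested. In any comparison of replicates 1 and 2 with UT, the peptide and the set of arrays cannot be told apart, and the part of the marker shift in the results below was not tested. Each array reads RNA of a whole culture, so a change inside cells and a change in the mix of cells cannot be told apart either.

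The comparison of SID with SCR asks what the decoy peptide does beyond its scrambled control. Over all 3 replicates, 28 of the 31 genes averaged higher in SID than in SCR and 3 averaged lower, with a median difference of 0.32 in log2 signal, beside a median of 0.02 and 55.2% higher among all tested probes. The means ranged from -0.67 for ANGPTL4, a secreted lipase inhibitor, to 1.18 for SLC2A3, the high-affinity glucose transporter GLUT3. Glucose transporters and glycolytic enzymes were higher in 12 of 12, with a median of 0.30, and the 3 collagen hydroxylases in 3 of 3, with a median of 0.53. None of these differences passed the test. A call asked for an adjusted p below 0.05 together with a change of more than 1 in log2 signal in either direction. By limma on the 9 arrays no probe was called higher (0% of 19460) or lower (0%). The lowest adjusted p was 0.657, 1474 probes had an unadjusted p under 0.05, and 12 of the 31 genes were among them. The methods' t-test called 0 probes with 378 at an unadjusted p under 0.05, and limma with the replicate number as a block on the 6 peptide arrays called 0 (0% in each direction) with 1560. The spread within groups was wide, with an SD of 1.71 among the SID arrays for CA12 and of 1.23 among the SCR arrays for ALDOC (n = 3 each).

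Taken replicate by replicate, SID minus SCR had a median over the 31 genes of 0.60 in replicate 1, 0.41 in replicate 2 and 0.12 in replicate 3. In replicate 1 the genes higher in SID numbered 28, in replicate 2 23 and in replicate 3 22. Of all probes 47.4%, 59.4% and 51.9% were higher in SID, in the same order of replicates. More than 1 log2 higher were 8 genes in replicate 1 and 7 in replicate 2, beside 2.09% and 2.49% of all probes, and in replicate 3 there was no gene and no probe at that size. Higher in SID in all 3 replicates were 17 genes (54.8%, beside 17.8% of all probes), which include SLC2A1, SLC2A3, HK2, PGK1, PDK1, VEGFA, BNIP3 and P4HA1. ANGPTL4 was the only gene of the 31 that was lower in all 3 (3.23%, beside 8.94% of all probes). These shares are descriptions with no test, and replicates 1 and 2 of SID and SCR are matched by number only.

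**Figure D1:**
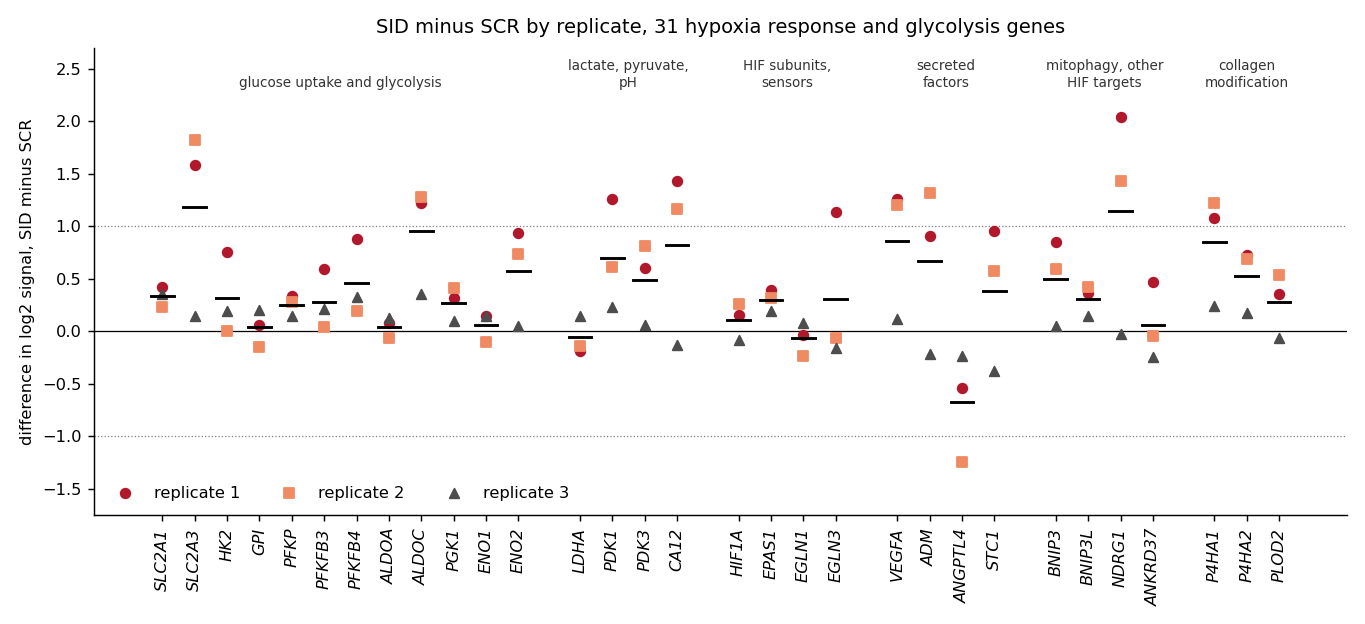
Difference in log2 signal between SID and SCR (vertical axis) for 31 genes in 6 role groups, with replicate 1 as circles, replicate 2 as squares, replicate 3 as triangles and the mean of the 3 as a bar; dotted lines stand at 1 and -1. Replicates 1 and 2 reach 2.04 for NDRG1 and 1.82 for SLC2A3, while replicate 3 lies between -0.38 and 0.36 for every gene shown.

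Replicates 1 and 2 were next fitted as means of their own beside replicate 3 and UT (5 means on all 9 arrays, with a single array taken to vary like the others). SID was above SCR for 27 of the 31 genes and below it for 4, with a median of 0.45, beside a median of 0.04 and 58.2% higher over all probes. In this fit 7 of the 31 genes rose in SID against SCR, beside 1.95% of all probes called higher. No gene was called lower, beside 3.31% of all probes, and 24 were not called. Those that rose were NDRG1 (3.33-fold), SLC2A3 (3.26-fold), CA12 (2.46-fold), ALDOC (2.38-fold), VEGFA (2.34-fold), P4HA1 (2.22-fold) and ADM (2.16-fold). Each role group but that of the HIF subunits and sensors thus gave at least 1. Beside UT in these replicates, ALDOC was -1.15 in SID and -2.40 in SCR, and SLC2A3 was 0.20 and -1.50. NDRG1, CA12, VEGFA, P4HA1 and ADM were called higher in SID than in UT. Markers of cell identity also moved in the contrast of SID with SCR. The matrix protein SPARC (-3.69), CDH5 (-2.67) and PECAM1 (-1.15) were called lower in SID than in SCR. The other 10 measured genes of the 2 lists that hold them were not called. Against UT in the same replicates, SPARC was -0.88 in SID and 2.81 in SCR, CDH5 -2.60 and 0.07, and PECAM1 0.82 and 1.96. The part of these markers in the results was not tested. With no fold limit, 18 of the 31 genes were higher at an adjusted p under 0.05, beside 11.2% of all probes, 1 was lower, beside 13.7%, and 12 passed in neither direction. With the 4 arrays fitted alone, 6 were called higher, beside 1.77% of all probes, and 0 lower, beside 2.64%, with ALDOC lost. The single arrays of replicate 3 gave no call in either direction (0% of probes higher, 0% lower), and the lowest adjusted p of the 31 genes there was 1.

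Glucose enters through the SLC2A transporters. SLC2A3 read 12.16, 12.34 and 12.31 in SID, 10.58, 10.52 and 12.17 in SCR and 12.23, 11.95 and 11.98 in UT. The SCR replicates 1 and 2 thus stood apart, below every other array, while the SID and UT arrays overlapped. SLC2A3 rose by 1.70 ± 0.12 (SE) in SID against SCR in replicates 1 and 2 (limma, adjusted p = 0.000204), and the group means over 3 arrays were 12.3 ± 0.0962 in SID and 11.1 ± 0.935 in SCR (SD, n = 3 each). SLC2A1, the widespread transporter GLUT1, read 13.48, 13.42 and 12.70 in SID, 13.06, 13.19 and 12.35 in SCR and 11.79, 11.76 and 11.88 in UT. All 6 peptide arrays lay above the 3 UT arrays, and SID lay above SCR in each replicate by 0.24 to 0.42. That difference was 0.33 ± 0.09 (SE) in replicates 1 and 2 (limma, adjusted p = 0.0332) and did not reach the fold limit.

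Of the 10 enzymes of glycolysis and its control, ALDOC was the only one called between SID and SCR in replicates 1 and 2. ALDOC, the aldolase known best from brain, read 9.57, 10.17 and 11.06 in SID, 8.35, 8.89 and 10.70 in SCR and 10.86, 11.24 and 10.95 in UT. Its lowest arrays were SCR replicates 1 and 2, followed by SID replicates 1 and 2, and the ranges of SID and SCR overlapped through replicate 3. ALDOC rose by 1.25 ± 0.24 (SE) against SCR in replicates 1 and 2 (limma, adjusted p = 0.00868), a call that was lost without SID replicate 2 (0.95) and without SCR replicate 1 (0.98). ALDOA, the aldolase of most tissues, differed by 0.0045 between SID and SCR in the same arrays (SE 0.10). ENO2, the neuronal enolase, read 11.62, 11.89 and 9.76 in SID, 10.68, 11.15 and 9.71 in SCR and 9.34, 9.40 and 9.37 in UT, high in replicates 1 and 2 of both peptides. Its SID minus SCR difference of 0.84 ± 0.16 passed the test without the fold limit (limma, adjusted p = 0.00823), whereas ENO1, the enolase of most tissues, differed by 0.02. PFKFB4, which makes and removes the fructose bisphosphate that drives phosphofructokinase, was 0.53 higher (adjusted p = 0.0471) and PGK1, the first ATP-yielding kinase of the pathway, 0.36 higher (adjusted p = 0.0200). HK2 (0.38), PFKP (0.31), PFKFB3 (0.32) and GPI (-0.04) did not pass at an adjusted p of 0.05.

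At the fork between lactate and the mitochondria, both kinases listed, which switch off pyruvate dehydrogenase, were higher at an adjusted p under 0.05 in replicates 1 and 2, and neither reached the fold limit. PDK1 read 11.52, 11.10 and 11.33 in SID, 10.27, 10.48 and 11.10 in SCR and 11.07, 11.10 and 11.17 in UT. As with SLC2A3, SCR replicates 1 and 2 were the low arrays and SID stayed near UT. There PDK1 was 0.94 ± 0.15 (SE) higher in SID (limma, adjusted p = 0.00361), the value just short of the fold limit. PDK3 was 0.71 higher (adjusted p = 0.00341). LDHA, which turns pyruvate into lactate, differed by -0.16 (adjusted p = 0.283), with values of 13.96, 13.87 and 14.14 in SID, 14.14, 14.01 and 13.99 in SCR and 13.85, 13.99 and 13.95 in UT that lay close together in all groups. CA12, a carbonic anhydrase of the cell surface that helps move acid outward, read 10.86, 10.89 and 7.92 in SID, 9.43, 9.72 and 8.05 in SCR and 8.06, 8.24 and 8.26 in UT. Replicate 3 of both peptides lay below each UT array, and replicates 1 and 2 lay well above, with SID above SCR. Between the peptides CA12 rose by 1.30 ± 0.12 (SE) in SID replicates 1 and 2 (limma, adjusted p = 0.000515).

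The HIF subunits and their sensors gave no call between SID and SCR. HIF1A read 13.42, 13.40 and 12.49 in SID, 13.26, 13.14 and 12.57 in SCR and 12.66, 12.53 and 12.53 in UT, high on replicates 1 and 2 of both peptides and near UT on replicate 3. The difference between SID and SCR in replicates 1 and 2 was 0.21 ± 0.09 (limma, adjusted p = 0.149), and HIF1A is regulated chiefly at the protein, which the arrays do not measure. EPAS1 read 11.44, 11.89 and 11.84 in SID, 11.05, 11.57 and 11.64 in SCR and 11.74, 11.85 and 11.85 in UT, with SID overlapping both other groups and all SCR arrays below UT (0.36 ± 0.20 in replicates 1 and 2, adjusted p = 0.248). EGLN3, a hydroxylase that is itself a HIF target, read 10.85, 9.75 and 10.21 in SID, 9.71, 9.82 and 10.37 in SCR and 9.46, 9.42 and 9.63 in UT. Only SID replicate 1 stood clear of SCR there, and the difference was 1.14 in replicate 1 and -0.06 in replicate 2. EGLN1, the main oxygen sensor of most cells, differed by -0.13 (adjusted p = 0.491).

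Among secreted factors, the angiogenic VEGFA and ADM rose in SID replicates 1 and 2, and STC1 and ANGPTL4 did not reach the fold limit. VEGFA read 12.60, 12.74 and 11.28 in SID, 11.34, 11.54 and 11.16 in SCR and 11.03, 10.81 and 10.75 in UT. SID replicates 1 and 2 were more than 1 log2 above all other arrays, and replicate 3 of SID lay within the range of SCR. VEGFA rose by 1.23 ± 0.13 (SE) in SID against SCR in replicates 1 and 2 (limma, adjusted p = 0.000743). ADM, the vasodilator peptide adrenomedullin, read 10.86, 11.45 and 10.47 in SID, 9.96, 10.13 and 10.69 in SCR and 9.76, 9.73 and 9.93 in UT. Its order turned in replicate 3, where SCR was above SID by 0.21, so the groups overlapped. Within replicates 1 and 2 ADM rose by 1.11 ± 0.18 (SE, adjusted p = 0.00460), the smallest difference past the fold limit, and the call was lost without SID replicate 2 (0.82). STC1, a secreted glycoprotein that acts on calcium and phosphate, read 11.81, 11.40 and 7.54 in SID, 10.85, 10.82 and 7.92 in SCR and 7.21, 7.08 and 7.23 in UT. Its span between the sets of arrays was above 3 log2 for SID, and the difference between peptides was 0.77 ± 0.14 in replicates 1 and 2 (adjusted p = 0.00596). ANGPTL4 read 8.82, 8.39 and 9.59 in SID, 9.35, 9.63 and 9.82 in SCR and 9.36, 9.51 and 9.17 in UT, lowest on SID replicates 1 and 2. It was -0.89 ± 0.18 (SE) in SID against SCR (adjusted p = 0.00919), the one gene of the 31 that was lower at an adjusted p under 0.05.

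The remaining targets act on mitochondria and in cell stress. NDRG1, a stress-response protein widely used as a marker of hypoxia, read 13.36, 13.26 and 12.27 in SID, 11.32, 11.83 and 12.29 in SCR and 11.29, 11.25 and 11.24 in UT. SID replicates 1 and 2 were the highest arrays, replicate 3 of both peptides read the same within 0.03, and both lay about 1 log2 above UT. Against SCR, NDRG1 rose by 1.73 ± 0.16 (SE) in SID replicates 1 and 2 (limma, adjusted p = 0.000449), and the group means over 3 arrays were 13.0 ± 0.604 in SID and 11.8 ± 0.488 in SCR (SD, n = 3 each). BNIP3, a receptor that delivers mitochondria to autophagy, read 13.61, 13.58 and 12.82 in SID, 12.76, 12.98 and 12.76 in SCR and 12.38, 12.29 and 12.35 in UT. SID and SCR lay above UT on all 6 arrays, and in replicates 1 and 2 BNIP3 was 0.72 ± 0.10 (SE) higher in SID than in SCR (adjusted p = 0.00199). Its relative BNIP3L was 0.39 higher (adjusted p = 0.0167), and ANKRD37 differed by 0.21 (adjusted p = 0.493).

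All 3 collagen-modifying enzymes were higher in SID at an adjusted p under 0.05. P4HA1, the catalytic subunit of collagen prolyl hydroxylase, read 12.08, 12.36 and 11.51 in SID, 11.00, 11.13 and 11.27 in SCR and 11.26, 11.16 and 11.22 in UT. The 3 SID arrays lay above all SCR and UT arrays with no overlap, and SCR and UT overlapped. P4HA1 rose by 1.15 ± 0.11 (SE) in replicates 1 and 2 (limma, adjusted p = 0.000650), while over all 3 replicates the difference was 0.85 ± 0.20 (adjusted p = 0.657). P4HA2, the second form of this subunit, read 11.16, 11.29 and 10.76 in SID, 10.44, 10.61 and 10.58 in SCR and 10.64, 10.48 and 10.68 in UT, again with each SID array above each SCR and UT array. Its difference was 0.71 ± 0.11 in replicates 1 and 2 (adjusted p = 0.00321). PLOD2, which hydroxylates collagen lysines, was 0.45 higher (adjusted p = 0.0119), with replicate 3 of both peptides and UT above replicates 1 and 2.

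**Figure D2:**
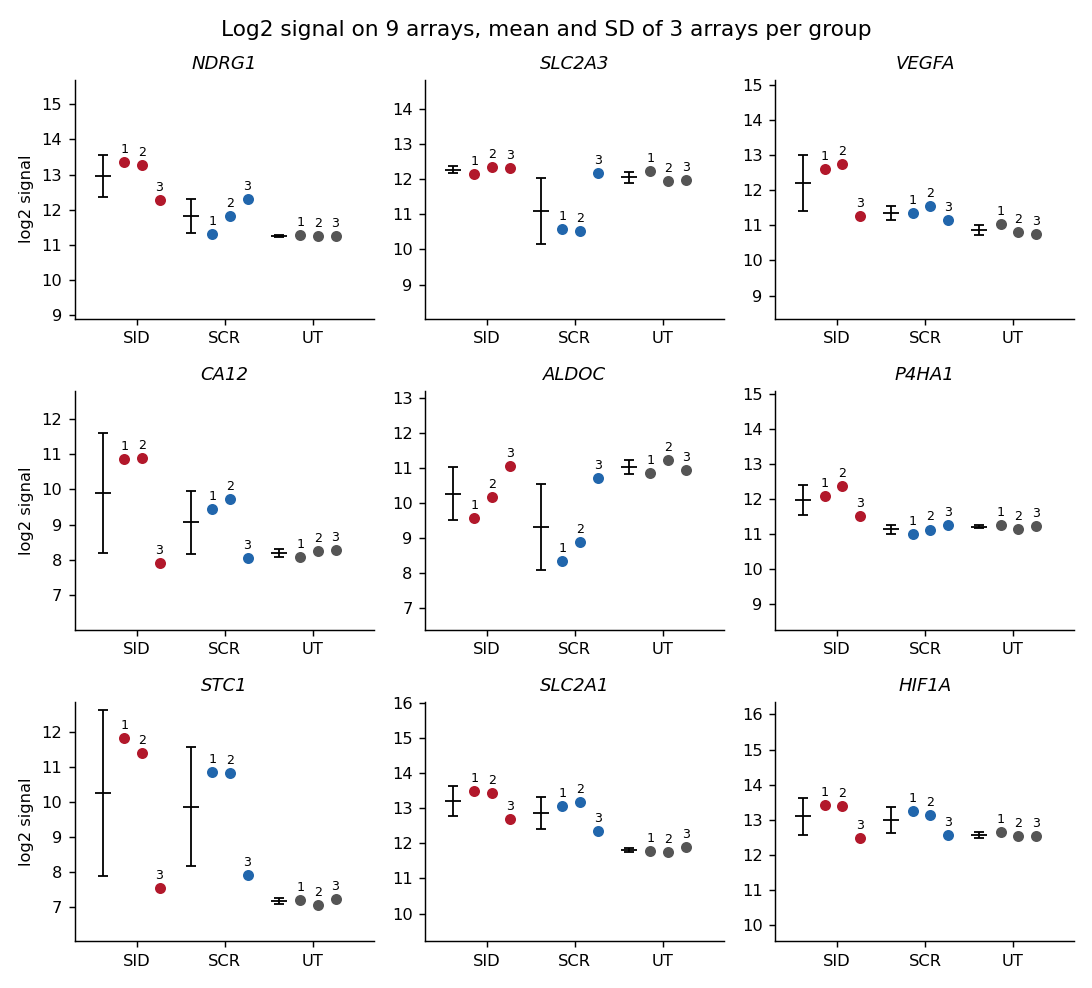
Log2 signal (vertical axis) of 9 genes on each array in SID, SCR and UT cells, with numbers for the replicates and, to the left of each group, the mean with the SD of 3 arrays; every panel spans the same number of log2 units. SID replicates 1 and 2 are highest for NDRG1 and VEGFA, SCR replicates 1 and 2 are lowest for SLC2A3 and ALDOC, and HIF1A, SLC2A1 and STC1 are high in replicates 1 and 2 of both peptides.

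Whether replicate 3 differed from replicates 1 and 2 in the response to SID was tested with an interaction contrast of the same fit. The SID minus SCR difference was larger in replicates 1 and 2 for 6 genes, beside 1.72% of all probes, and smaller for 0, beside 3.15%. Those 6 were NDRG1 (1.76, adjusted p = 0.0138), SLC2A3 (1.56, adjusted p = 0.00941), CA12 (1.43, adjusted p = 0.0127), ADM (1.33, adjusted p = 0.0490), STC1 (1.15, adjusted p = 0.0308) and VEGFA (1.11, adjusted p = 0.0265). P4HA1 had a contrast of 0.91 (adjusted p = 0.0358), short of the fold limit, and SLC2A1, which differed by 0.33 in replicates 1 and 2 and by 0.36 in replicate 3, had a contrast of -0.03 (adjusted p = 0.945). Only NDRG1, SLC2A3 and CA12 kept the call when any 1 of the 7 arrays outside replicate 3 was left out. VEGFA, ADM and STC1 lost it without SCR replicate 1 and without UT replicate 3, VEGFA also without SID replicate 2, STC1 also without SID replicate 1, and ADM and STC1 also without SCR replicate 2, UT replicate 1 or UT replicate 2. Over these settings the contrast ran from 1.01 to 1.21 for VEGFA, from 1.03 to 1.62 for ADM and from 0.94 to 1.35 for STC1. The contrast rests on 1 array of each peptide for replicate 3, and the time of the SCR array is in doubt.

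The comparison with untreated cells sets each peptide beside a common baseline. On all 9 arrays no probe was called for SID against UT (0% higher, 0% lower, lowest adjusted p 0.388, 2432 probes at an unadjusted p under 0.05) or for SCR against UT (0% higher, 0% lower, lowest adjusted p 0.332, 2811 probes). In replicates 1 and 2 the 31 genes had a median of 0.54 in SID against UT and of 0.23 in SCR against UT, beside 0.02 and -0.01 over all probes. SID was called higher than UT for 11 of the 31 genes, beside 6.93% of all probes, and lower for 1, beside 6.4%. SCR was called higher than UT for 4, beside 6.58%, and lower for 2, beside 4.82%. The 2 comparisons share the UT arrays, so each gene's values are given side by side. STC1 was 4.43 above UT in SID and 3.66 in SCR, CA12 2.69 and 1.39, ENO2 2.39 and 1.55, and SLC2A1 1.64 and 1.31, and these 4 were called higher in both. Called higher in SID alone were NDRG1 (2.05 in SID, 0.32 in SCR), VEGFA (1.81 and 0.58), ADM (1.35 and 0.24), BNIP3 (1.26 and 0.53), PFKFB4 (1.20 and 0.67), BNIP3L (1.12 and 0.72) and P4HA1 (1.00 and -0.15). Aldolase ALDOC was called lower in both, at -1.15 in SID and -2.40 in SCR. SLC2A3 was called lower in SCR alone (0.20 in SID, -1.50 in SCR), and PDK1 had the same order without a call (0.20 in SID, -0.74 in SCR). NDRG1, VEGFA, ADM and P4HA1 were above UT in SID with SCR nearer to UT, while SLC2A3 was near UT in SID with SCR below it.

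Against UT, replicate 3 showed small shifts, without a call among the 31 genes. SID replicate 3 was higher than UT for 29 of the 31, with a median of 0.28 and a range of -0.27 to 1.05, and 0.0103% of all probes were called higher and 0% lower. PFKFB4 (1.05) and NDRG1 (1.01) were the 2 genes past the fold limit, and the lowest adjusted p was 0.0819, for SLC2A1 (0.89). SCR replicate 3 was higher than UT for 24, with a median of 0.14 and a range of -0.32 to 1.04, and no probe was called (0% higher, 0% lower). Its highest value was again that of NDRG1. Of all probes, 54.13% were higher than UT in SID replicate 3 and 53.05% in SCR replicate 3, each with a median of 0.01. Past the fold limit were 11 of all probes above UT and 59 below in SID replicate 3. In SCR replicate 3 these were 2 above and 11 below.

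**Figure D3:**
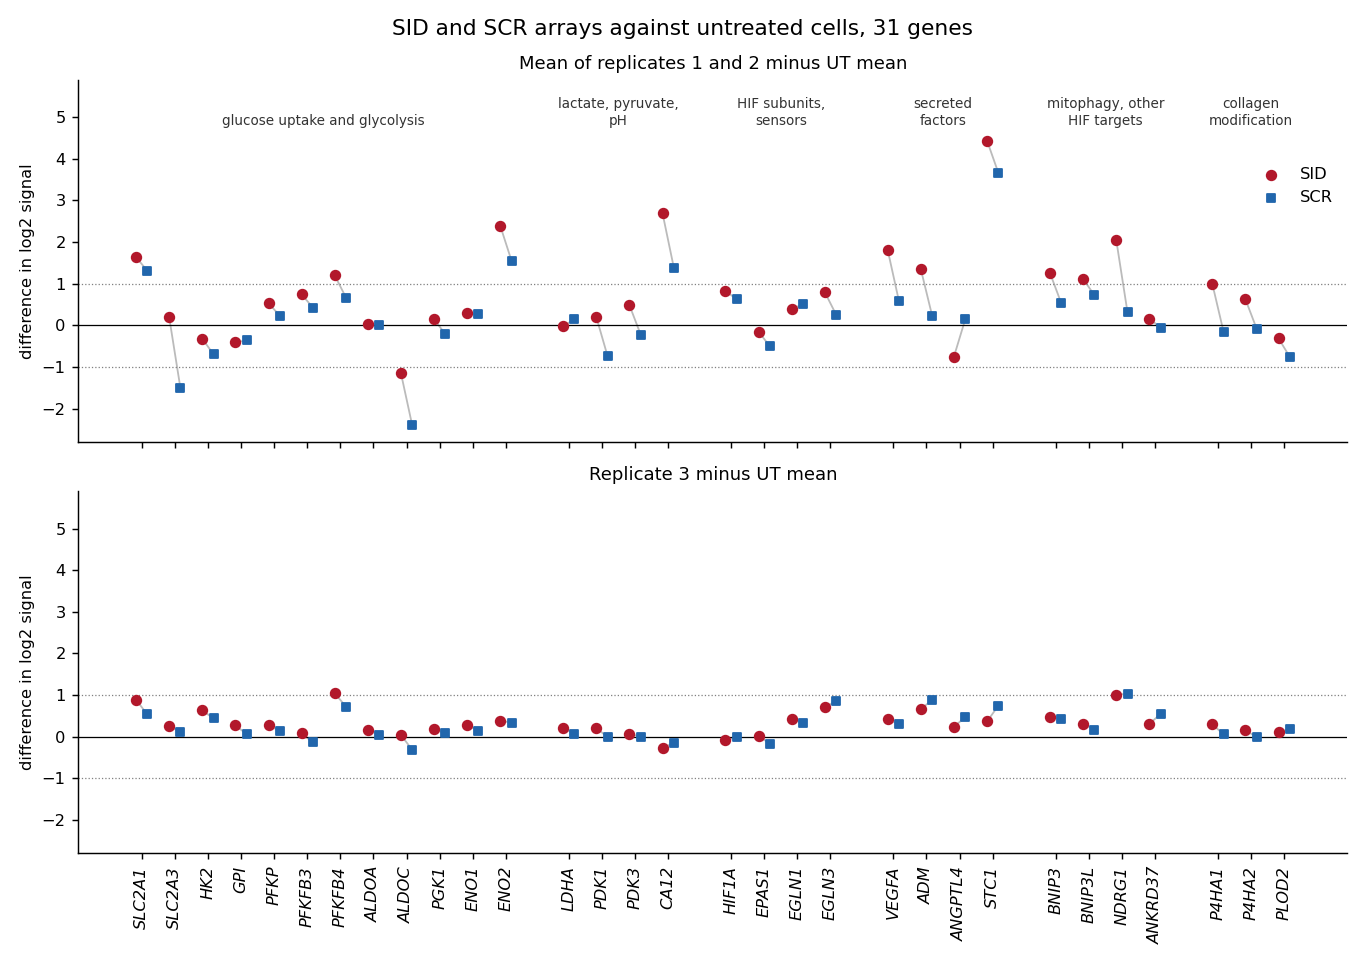
Difference in log2 signal from the UT mean (vertical axis) for 31 genes in SID (circles) and SCR (squares), above for the mean of replicates 1 and 2 and below for replicate 3; dotted lines stand at 1 and -1 and a grey line joins the 2 peptides. In replicates 1 and 2 the values run from -2.40 for ALDOC in SCR to 4.43 for STC1 in SID, and in replicate 3 from -0.32 to 1.05.

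Other genes of the same pathways, listed by role, give the setting. Of 33 measured genes that are also known HIF targets (of 35 listed), 27 had a positive SID minus SCR difference over replicates 1 and 2, with a median of 0.52. Among all probes 58.2% were positive, with a median of 0.04. Of the 33 genes 6 were called higher, beside 1.95% of all probes, and 0 lower, beside 3.31%. LOX, which cross-links collagen, was called with 1.78 ± 0.16 (SE, adjusted p = 0.000496), and read 11.66, 12.06 and 10.97 in SID, 10.26, 9.90 and 10.84 in SCR and 10.30, 10.15 and 10.16 in UT. The other 5 were MXI1 (1.41), FAM162A (1.21), GBE1 (1.17), VLDLR (1.12) and INSIG2 (1.10), named after their values were seen. Against UT in the same replicates, MXI1 was 0.35 in SID and -1.06 in SCR, FAM162A 0.16 and -1.05, and VLDLR -0.15 and -1.27. GBE1 was 1.70 and 0.53, INSIG2 1.12 and 0.02, and LOX 1.65 and -0.12. Of the 33 genes SID was called higher than UT for 10, beside 6.93% of all probes, and lower for 3, beside 6.4%. SCR was called higher for 3, beside 6.58%, and lower for 8, beside 4.82%. In replicate 3 the SID minus SCR median of this list was 0.05. The 13 measured glycolytic enzymes and isoforms outside the 31 genes (of 16 listed) had a median of 0.14 with 8 higher and 5 lower, and 0 were called. The 6 measured genes of the pentose phosphate pathway (of 7) had a median of 0.21 and the 14 measured genes of the HIF machinery (of 15) one of 0.05, with 0 called in each. In the set that admits pyruvate to the mitochondria, 2 of 10 measured genes (of 11) were called higher, beside the same 1.95% of all probes. These were PDK4, the fourth pyruvate dehydrogenase kinase, with 2.60 ± 0.19 (adjusted p = 0.000259), and its opponent, the phosphatase PDP1, with 1.09. PDK4 read 10.56, 11.02 and 11.80 in SID, 8.22, 8.16 and 11.57 in SCR and 11.47, 11.32 and 11.82 in UT, so that SCR replicates 1 and 2 were the low arrays, as for SLC2A3 and PDK1.

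Isoforms of glycolysis also moved with the sets of arrays in both peptides. HK1, the housekeeping hexokinase, was 3.14 above UT in SID and 2.82 in SCR replicates 1 and 2, while ENO3, the muscle enolase, was -3.06 and -2.75 and PFKM, the muscle phosphofructokinase, -1.79 and -1.65. Between SID and SCR these 3 differed by 0.32, -0.31 and -0.14 and were not called. They were named after their values were seen. Of 6 measured genes of heat shock and acute stress (of 8), GADD45A (1.20) and ATF3 (1.08) were called higher in SID over SCR in replicates 1 and 2, beside 1.95% of all probes. The list had a median of 0.77 there and of 0.30 in replicate 3. Its summed log2 signal ran from 12.94 to 13.77 in SID, from 12.78 to 13.45 in SCR and from 12.33 to 12.60 in UT. The part of this stress signal in the hypoxia genes was not tested.

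**Figure D4:**
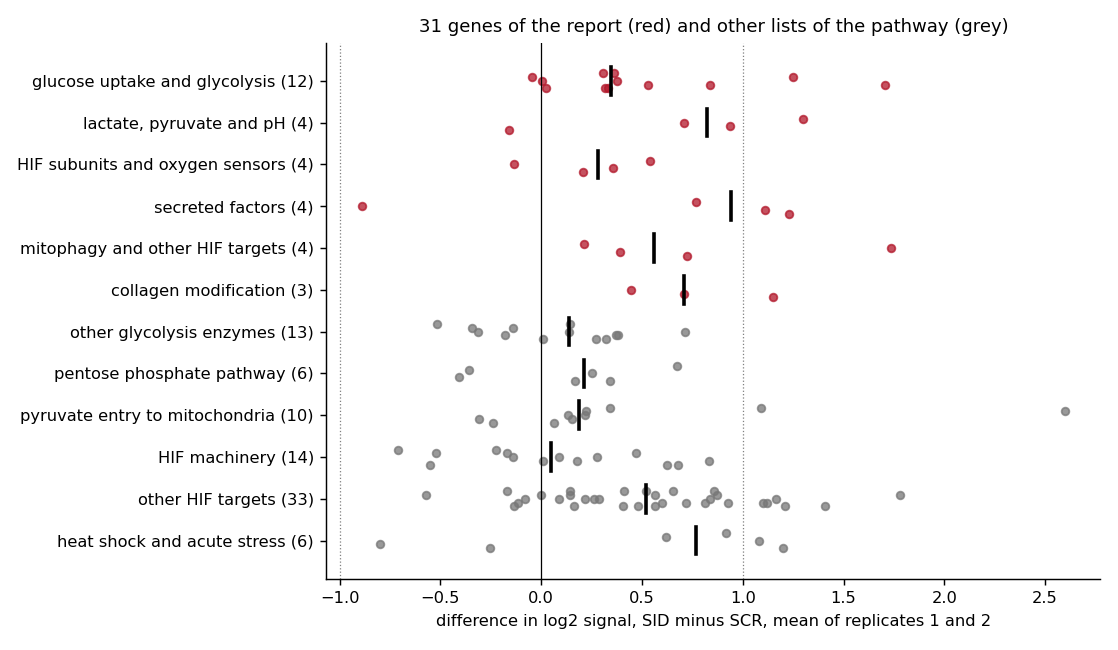
SID minus SCR difference in log2 signal, mean of replicates 1 and 2 (horizontal axis), for each measured gene of 6 role groups among the 31 genes (red) and of 6 other lists (grey), with the number of genes in brackets and the median as a bar; dotted lines stand at 1 and -1. Medians run from 0.05 for the HIF machinery to 0.94 for the secreted factors, and the other HIF targets have a median of 0.52.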

How the data were processed

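RNA of MDA-MB-231 cells, 3 arrays each of SID, SCR and UT, was measured by the authors on Affymetrix human gene arrays. The deposited values are normalized log2 signals per transcript cluster. The submitters' notes name Affymetrix Expression Console, RMA and Transcriptome Analysis Console, with no version or setting, and the log2 scale was read from the values (3.75 to 14.94, array medians 7.68 to 7.77). Such normalization assumes that most genes do not change. Of 33297 rows, 19460 carry 1 gene symbol, 1754 several and 12083 none, and the first kind was tested, with 19429 matched to RefSeq genes by Entrez ID. The number of arrays limits the precision, and p-values measure the spread between these arrays only.

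Group means were compared by a two-sided test in limma 3.58.1 (lmFit, then eBayes, under R 4.3.3), and Benjamini-Hochberg adjustment ran over all 19460 probes. Calls were made at an adjusted p below 0.05 where the log2 signal also changed by more than 1 in either direction. A fit with 3 means gave the comparisons on all arrays. A fit with 5 means split SID and SCR into replicates 1 and 2 and replicate 3, and gave the interaction contrast. The procedure was tested on simulated data. The members, the lists, the split of the replicates and the tests were chosen with earlier results of these data known. Single genes with values on every array are the pair in each role group with the largest mean difference between SID and SCR, with HIF1A, EPAS1, VEGFA and SLC2A1 in any case. ADM, STC1, ENO2, LDHA and further genes were named after their values were seen. Of other lists, genes with a mean difference over 3 replicates above 1 in either direction were to be named (PDK4, LOX, SPARC and CDH5). AXL, EPCAM, KRT19 and PECAM1 were named outside this rule.

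Replicate numbers of SID and SCR were tested for pairing. Deviations from the group means correlated at 0.774, 0.575 and 0.791 across probes for same-numbered arrays. SID replicate 1 with SCR replicate 2 gave 0.748 and SID replicate 2 with SCR replicate 1 gave 0.604. Pairs of replicate 3 with replicate 1 or 2 gave -0.826 to -0.640. These values follow the 2 sets of arrays and cannot tell whether replicates 1 and 2 pair by number. The numbers were used as pairs all the same. The replicate block, array weights, a Student's t-test, quantile normalization, median centring, a filter at a mean log2 signal of 6, the mean of a gene's probes and leaving out each array were tried as alternatives. Promoter windows are those of RefSeq (GRCh38.p14). Figures were drawn with matplotlib 3.10.9.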

Additional observations from a re-analysis of the deposited data

Results flagged for a closer look

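By an interaction contrast (limma), the difference between SID and SCR was larger in replicates 1 and 2 than in replicate 3 for the genes named next. The count and the share over all probes are given above. The contrast rests on 1 array of each peptide for replicate 3, and the time of the SCR array is in doubt. Its size in log2 was 1.76 for NDRG1 (adjusted p = 0.0138), 1.56 for SLC2A3 (adjusted p = 0.00941), 1.43 for CA12 (adjusted p = 0.0127), 1.33 for ADM (adjusted p = 0.0490), 1.15 for STC1 (adjusted p = 0.0308) and 1.11 for VEGFA (adjusted p = 0.0265). SID was above SCR in replicates 1 and 2 for all 6. In replicate 3 SID was below SCR for NDRG1 (-0.03), CA12 (-0.13), ADM (-0.21) and STC1 (-0.38). VEGFA, ADM and STC1 lost the call in some settings with 1 array left out. Groups of 3 arrays are too small for a test of single outlying arrays.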

How the results depend on the processing

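The fit with 3 means on all 9 arrays called 0 probes in SID against SCR. Array weights, whose estimate did not converge fully, called 761 (7 of the 31 genes), replicates 1 and 2 alone 859 (6) and the fit with 5 means 1024 (7). Array weights moved the median of the 31 genes to 0.59, from 0.32 unweighted, and called 2389 probes and 12 genes in SID against UT and 2116 and 6 in SCR against UT, where the unweighted fit called 0. Leaving out each array in turn gave 0 to 648 probes and 0 to 3 genes in SID against SCR, 0 to 1946 and 0 to 11 in SID against UT and 0 to 1071 and 0 to 3 in SCR against UT, with the highest counts in SID against SCR and SID against UT without SID replicate 3 and in SCR against UT without SCR replicate 3. With the replicate block on the 6 peptide arrays 0 probes and 0 of the 31 genes were called, at a median of 0.32, and no call changed.

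In replicates 1 and 2, no fold limit gave 4840 probes and 19 genes in SID against SCR, 7707 and 22 in SID against UT and 7167 and 18 in SCR against UT, against 1024 and 7, 2593 and 12 and 2217 and 6 with the limit. For the interaction contrast it gave 1460 against 948. Leaving out arrays moved the median of the 31 genes there between 0.35 and 0.60, the interaction count between 550 (without UT replicate 3) and 1545 (without SID replicate 1), and its genes between 3 and 6. The 7 genes called in replicates 1 and 2 kept their calls under quantile normalization, median centring, the filter, the mean of probes and every array left out, except ALDOC and ADM without SID replicate 2 and ALDOC without SCR replicate 1. Leaving out arrays turned the sign of HIF1A (-0.10 to 0.42) and STC1 (-0.59 to 1.74) in SID against SCR on all arrays and of EGLN3 in replicates 1 and 2 (-0.012 to 1.09). The cause was not tested. Quantile normalization, median centring, the filter and the mean of probes left the calls and directions of the results named here as they were.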
